A study of Mus musculus with 18 samples.

Results

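Homozygous Nkx2-5 mutant embryos were compared with wild-type embryos on 12 of the series' 18 arrays, 6 of each genotype, chosen by the genotype in the labels. Nkx2-5, also called Csx, is a homeodomain protein that heart progenitors need to build a heart. Total RNA came from the central one of 3 portions of mouse embryos at embryonic day 9.5, a mixed tissue that holds heart, gut, nerve tube, vessels, blood and mesenchyme. Each of the 2 array types, called a and b, carries its own probe sets and had 3 arrays per genotype. Wild-type arrays are numbered 1, 5 and 7 on both types. Mutant arrays are numbered 2, 6 and 8 on type a and 2, 6 and 9 on type b; the last of each are called 8a and 9b, and whether they share an RNA is not stated. The labels give no strain, mutant allele, sex, litter or somite stage, nor the number of embryos behind an array. The p-values therefore measure only the spread between these arrays, which may be technical.

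In mouse embryos without Nkx2-5 the heart tube forms and beats but does not go on to loop normally, and the embryos die around or soon after the stage studied here. Several programmes of supply and stress can be read from RNA. Low oxygen stabilises hypoxia-inducible factors, which bind sites with the core ACGTG and switch on genes of glucose uptake, glycolysis and vessel growth. Lack of amino acids or of folding capacity acts through Atf4, which binds composite sites of the form TGATGNAA near genes such as Asns. Sterol and fatty acid enzymes are run as a block by the SREBP factors, which respond to sterol supply.

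Of 13057 probe sets, groups of oligonucleotide probes read as 1 intensity, 6935 exceeded a noise floor on at least 3 of the 9 arrays of their type and were tested. Intensities are given as deposited, and values under the floor, which was 375.1 on type a and 523.1 on type b, were set to it before log2 was taken. A change is an adjusted p under 0.05 in limma's fit with Benjamini-Hochberg adjustment, in which the heterozygous arrays helped to estimate the spread. No probe set named for Nkx2-5 was analysed here, so the genotype labels were not checked through that gene. Of the 5 heart muscle markers on the arrays (Actc1, Myl4, Tnnt2, Tnnc1 and Myh6) all exceeded the floor on every array, with summed intensities of 90131 to 130020 in wild type and 79871 to 164810 in the mutants. Arrays 8a and 9b stood apart in their controls: the actin 3' to 5' ratio was 2.5 on 8a against 0.967 to 1.41 on the other type a arrays, and 2.28 on 9b against 0.849 to 1.4. Wild type 1 and homozygous mutant 2 were high in the liver and visceral endoderm marker Afp, at 3515 and 3642 on type b, where the other wild-type and mutant arrays read 336.7 to 705.9. Some results are also given without these arrays. Values given with all arrays only may still depend on them.

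In the homozygous mutants 48 of the 6935 tested probe sets changed, which is 0.692%. Of these, 35 were higher (0.505%) and 13 were lower (0.187%). They stand for 25 named genes higher and 11 lower, and 9 of the probe sets had no single gene name. On type a 0.806% of probe sets changed and on type b 0.539%. By the lists, 6 of 13 hypoxia-inducible genes and 3 of 18 genes of the amino acid response rose at the brightest probe set, and no other list had more than 2 risers. No list had more than 1 gene that fell there. Of the hypoxia and amino acid risers, Adm, Ndrg1 and Vldlr lay under the floor in wild type and heterozygotes. They were tested through the mutant arrays only. The count rests on few arrays. Leaving out wild type 5 gave 14, leaving out wild type 7 gave 16, leaving out homozygous mutant 2 gave 18 and leaving out heterozygous 3 gave 27. A fit with no heterozygous arrays gave 7. Without the 3 arrays of each type that were high in Afp, which leaves 2 arrays per group, limma made 0 calls at an adjusted p under 0.05, with 524 probe sets at an unadjusted p under 0.05, against 777 with all arrays. There the log2 fold change was 3.36 for Ddit4, 2.44 for Krt19 and 1.34 for Pgm1, close to the values with all arrays. For others it was smaller than with all arrays, as for Pdk1 (1.30 in place of 1.54) and Zfp982 (1.07 in place of 1.33).

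**Figure D1:**
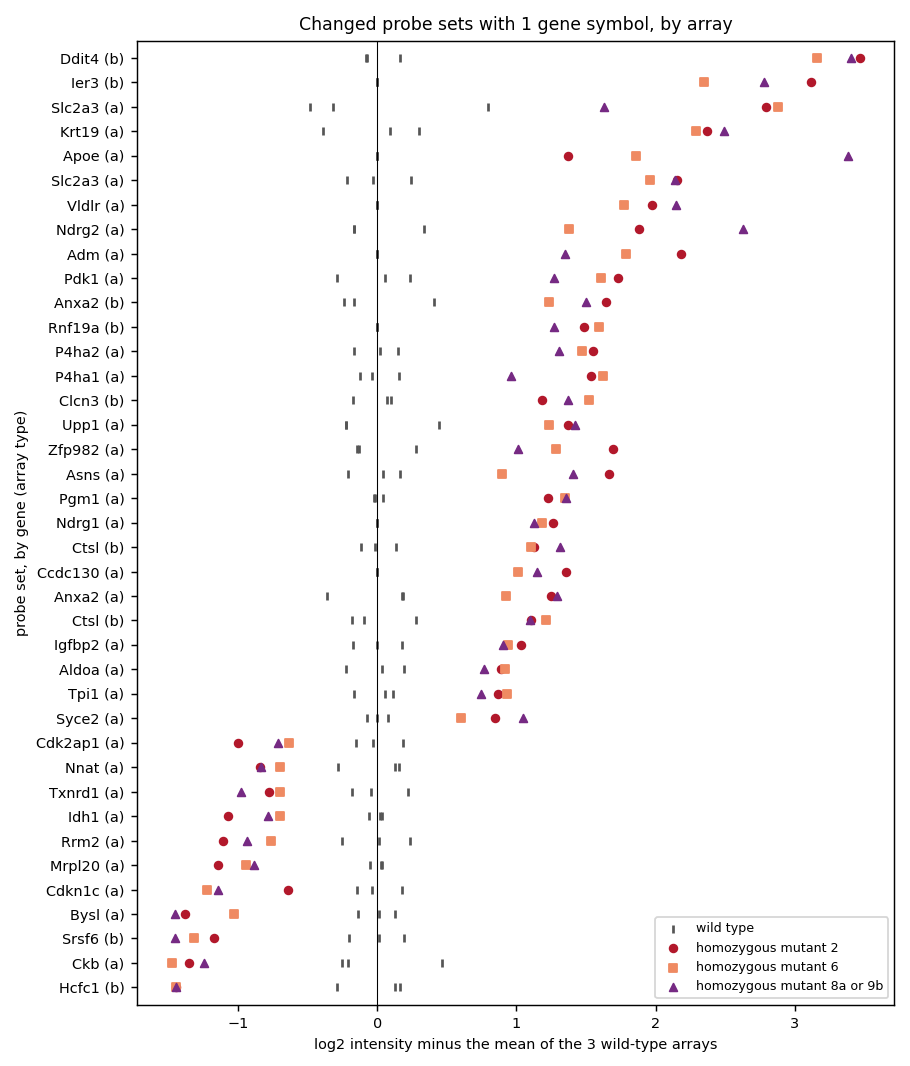
Log2 intensity minus the mean of the 3 wild-type arrays for each changed probe set with 1 gene symbol (rows, array type in brackets); grey ticks are wild-type arrays and coloured symbols the 3 mutant arrays. All 3 mutant symbols lie on one side of the wild-type ticks in every row, and Apoe is the row where they are most spread.

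The promoter windows of 5 genes that rose are shown because they carry the letter patterns of the oxygen and amino acid programmes; they were chosen for holding a match. Ddit4 belongs to the list of hypoxia-inducible genes, Asns and Vldlr to that of the amino acid response and Ctsl to the lysosomal list, and Pgm1 is in none of these. The windows are the 250 bases before the annotated start, from RefSeq on build GRCm38.p6, printed 5' to 3' on the gene's strand. They lie at chr10:59951771-59952020 (minus) for Ddit4, chr4:99929201-99929450 (plus) for Pgm1, chr6:7693210-7693459 (minus) for Asns, chr19:27216770-27217019 (plus) for Vldlr and chr13:64370521-64370770 (minus) for Ctsl. Capitals mark ACGTG, TGATGNAA or TNAAGTG, the last being the core of Nkx2-5 sites, on either strand.
Ddit4: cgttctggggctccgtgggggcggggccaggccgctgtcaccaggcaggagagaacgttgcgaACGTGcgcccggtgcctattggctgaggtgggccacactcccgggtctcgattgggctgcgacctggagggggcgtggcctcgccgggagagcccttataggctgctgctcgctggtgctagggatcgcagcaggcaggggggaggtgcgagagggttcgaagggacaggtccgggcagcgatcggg
Pgm1: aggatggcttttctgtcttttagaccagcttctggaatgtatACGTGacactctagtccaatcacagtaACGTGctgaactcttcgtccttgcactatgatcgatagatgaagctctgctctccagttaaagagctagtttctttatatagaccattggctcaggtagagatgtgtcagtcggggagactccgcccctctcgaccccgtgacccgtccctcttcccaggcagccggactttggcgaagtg
Asns: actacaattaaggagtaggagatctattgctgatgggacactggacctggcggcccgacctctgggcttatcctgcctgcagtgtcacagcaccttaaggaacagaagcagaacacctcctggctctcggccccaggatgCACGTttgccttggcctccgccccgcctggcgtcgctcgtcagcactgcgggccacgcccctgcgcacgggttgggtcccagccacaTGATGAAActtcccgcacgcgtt
Vldlr: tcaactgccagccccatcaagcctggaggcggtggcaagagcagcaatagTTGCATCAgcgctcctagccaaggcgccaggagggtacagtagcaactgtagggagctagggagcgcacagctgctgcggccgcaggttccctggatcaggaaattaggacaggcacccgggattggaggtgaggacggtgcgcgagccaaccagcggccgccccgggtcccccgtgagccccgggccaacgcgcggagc
Ctsl: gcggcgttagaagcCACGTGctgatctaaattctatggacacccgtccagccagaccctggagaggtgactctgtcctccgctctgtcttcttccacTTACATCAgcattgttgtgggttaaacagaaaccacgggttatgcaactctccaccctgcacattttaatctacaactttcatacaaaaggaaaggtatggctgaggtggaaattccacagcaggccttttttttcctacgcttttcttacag
ACGTG stood in 13 of the 36 windows of genes that rose (36.1%), in 3 of 13 windows of genes that fell (23.1%), and in 16.6% of all 32851 windows in the table. TGATGNAA stood in 4 of the 36 (11.1%), in 0 of the 13 and in 3.45% of all. TNAAGTG stood in 13.9%, 7.69% and 10.1%. Windows were found for 21 of the 25 genes higher and 10 of the 11 lower, some genes having several that overlap. A match describes letters in a window and no more.

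Ddit4, Slc2a3 and Pgm1, genes of oxygen and sugar handling, rose. Ddit4, an inhibitor of mTORC1 induced by stress, read 2618, 2208 and 2219 on wild-type arrays 1, 5 and 7 and 25899, 20958 and 24797 on mutant arrays 2, 6 and 9b. The lowest mutant array was far above the highest wild-type array, and the rise was 10.2-fold (log2 fold change 3.35, SE 0.209, limma adjusted p = 3.67e-05). The glucose transporter Slc2a3 read 2595, 2950 and 3570 in wild type and 13382, 11688 and 13281 in the mutants at its brighter probe set, 4.24-fold higher (adjusted p = 0.00015). Its other probe set read 652.4, 1579 and 731.3 against 6316, 6688 and 2809, with array 8a the lowest of the mutants (log2 fold change 2.43, adjusted p = 0.0189).

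Pgm1, the phosphoglucomutase that links glycogen to glycolysis, rose evenly across the mutant arrays. It read 6141, 6371 and 6083 in wild type and 14481, 15764 and 15828 in the mutants, a 2.48-fold rise (log2 fold change 1.31, SE 0.131, limma adjusted p = 0.000629). Its log2 fold change stayed between 1.28 and 1.35 in all 20 other settings tried, and it passed the test in the 19 planned ones. ACGTG stands at 2 places in its window.

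Of the 13 tested genes in the list of hypoxia-inducible genes 6 rose (Ddit4, Adm, Ndrg1, Pdk1, P4ha1 and P4ha2), none fell, and all 13 had a positive log2 fold change. In 11 of the 13 all mutant arrays were above all wild-type arrays, against 7.85% of the 3909 tested genes, taking the brightest probe set of each. Of these members Adm and Ndrg1 lay under the floor of 375.1 in wild type and, by their means of 278.4 and 61.1, in heterozygotes. They were tested only because the mutant arrays exceeded the floor. Their positive sign and lack of overlap were therefore fixed by the filter and add nothing to those counts. Their floored wild-type values are equal, which lowers the spread behind their place among the 6 that rose. The median log2 fold change of the 13 was 1.19, against -0.04 over the 3909 genes. The median deviation from wild type was 1.32, 1.18 and 0.96 on mutants 2, 6 and the pair 8a and 9b. Members that did not pass included Vegfa, the main vessel growth factor, under the floor in wild type (112.5, 177.9 and 245.4) and at 1120, 1426 and 486.7 in the mutants (adjusted p = 0.119). Its place among the 11 may therefore rest on the filter too. Pfkfb3, which makes the activator of phosphofructokinase, had 1.05 (adjusted p = 0.0581). Higd1a, a mitochondrial protein induced by low oxygen, also had 1.05 (adjusted p = 0.0709). The iron carrier receptor Tfrc had 0.05 and the clock repressor Bhlhe40 0.36, the only members whose groups overlapped.

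Among 13 genes of sugar transport and glycolysis 12 were positive with a median of 0.35, and Slc2a3 alone rose at its brightest probe set. The enzymes Aldoa and Tpi1 rose at a dimmer one. Aldoa read 18028, 16093 and 13484 in wild type and 29136, 29764 and 26870 in the mutants there (log2 fold change 0.86, adjusted p = 0.0199). Its brighter probe sets on type b had 0.47 and 0.34, and there mutant 2 did not exceed the highest wild-type array. Hk1, the first enzyme of glycolysis, was measured by a probe set on each type and had 0.52 (adjusted p = 0.199) and 0.65 (adjusted p = 0.261), with all mutant arrays above all wild-type arrays at both.

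The amino acid response held 3 genes that rose. Asns, asparagine synthetase, read 2971, 3234 and 2494 in wild type and 9124, 5354 and 7642 in the mutants, so that even mutant 6, the lowest, was above every wild-type array (2.5-fold, log2 fold change 1.32, SE 0.198, limma adjusted p = 0.0111). Vldlr, a lipoprotein receptor, lay below the floor on each wild-type array (101.0, 290.1 and 300.6) and read 1470, 1283 and 1661 in the mutants, at least 3.9-fold higher (adjusted p = 0.000629). Upp1, a uridine phosphorylase that releases ribose, read 595.5, 313.5 and 276.7 against 1131, 1028 and 1171 (log2 fold change 1.34, adjusted p = 0.0190). These were 3 of 18 tested members; 15 did not pass, 11 were positive and the median was 0.22. Atf4 itself, the factor of this programme, had 0.60 (adjusted p = 0.117), with 10739, 11656 and 8425 in wild type and 16864, 15157 and 14434 in the mutants. Mthfd2, a folate enzyme of mitochondria, had 0.54 (adjusted p = 0.227), and Slc3a2, a subunit of amino acid transporters, had 0.75 and 0.72 at its probe sets (adjusted p = 0.28 and 0.283). The 14 tRNA synthetases had a median of 0.13 and none passed.

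Ctsl and Anxa2 rose at more than 1 probe set each. Ctsl, the lysosomal protease cathepsin L, read 4867, 5214 and 5792 in wild type and 11536, 11362 and 13130 in the mutants at 1 probe set (log2 fold change 1.18, SE 0.165, limma adjusted p = 0.00944). At the other it read 3508, 3292 and 4539 against 8046, 8691 and 8014 (1.14, adjusted p = 0.0317). The list of lysosomal genes had a median of 0.33 over 18 tested genes, and only Ctsl passed. In it 14 were positive, against 45.5% of all tested genes, and 6 lay above wild type without overlap, against 7.85%. Deviations of the list were 0.59, 0.21 and 0.30 on mutants 2, 6 and the pair 8a and 9b. The wild-type arrays lay between -0.11 and 0.13. Without the arrays high in Afp, mutant 2 among them, the median was 0.34. Cd63, a tetraspanin of late endosomes, had 0.64 (adjusted p = 0.0806). Clcn3, a chloride and proton exchanger of endosomes, rose from 993.3, 1178 and 1200 to 2545, 3211 and 2896 (1.36, adjusted p = 0.0347).

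Anxa2, an annexin that binds membranes and actin, rose on both array types. On type b it read 4604, 3086 and 2941 in wild type and 10824, 8146 and 9825 in the mutants (1.46, adjusted p = 0.0105), and on type a 4185, 4214 and 2878 against 8808, 7038 and 9043 (1.16, adjusted p = 0.0220). Apoe, an apolipoprotein, lay below the floor on every wild-type array of type a and was at least 4.6-fold higher in the mutants (adjusted p = 0.0313). Heterozygotes, with a mean of -1133.5, were under the floor too, so Apoe was tested there only through the mutant arrays. Its call held in 7 of the 18 planned settings in which it was tested. On type b, where 1 wild-type array exceeded the floor, it did not pass (2.19 on the log2 scale, adjusted p = 0.122). Its mutant arrays were the least alike of any changed probe set, at 967.6, 1360 and 3904 on type a. There the wild-type values were negative as deposited. Without array 8a the type a log2 fold change, a bound, was 1.61, with 2.20 on all arrays.

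Among genes of simple epithelium Krt19 rose and 14 of 18 were positive. Krt19, a keratin of simple epithelia, read 767.0, 549.8 and 885.1 in wild type and 3722, 3524 and 4044 in the mutants (5.22-fold, log2 fold change 2.38, SE 0.263, limma adjusted p = 0.00141). The related keratins Krt18 (1.30, adjusted p = 0.0800) and Krt8 (1.12 on type a, adjusted p = 0.0505, and 0.72 on type b, adjusted p = 0.370) did not pass. Dsp, the desmosomal plaque protein, had 0.70 and 0.93 at its probe sets, without overlap at either. Of the list's genes 1 passed and the median was 0.34. Positive values made up 45.5% of all tested genes, beside the 14 of 18 here. In the list 5 lay above wild type without overlap, against 7.85% of all. Its deviations were 0.54, 0.17 and 0.16 on mutants 2, 6 and the pair 8a and 9b. The wild-type arrays lay between -0.08 and 0.06. Without the arrays high in Afp, mutant 2 among them, the median was 0.26. Summed over the 5 epithelial markers fixed for the check of tissue, of which 4 exceeded the floor on every wild-type and mutant array and Epcam on 1 of these, intensity was 7318 to 9236 in wild type and 13045 to 22150 in the mutants. The sum includes Krt19, already counted as changed. At Krt8 on type b mutant 6 read 4255, inside the wild-type range of 3976 to 4716. In such bulk tissue more cells of a type and more RNA per cell cannot be told apart.

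Other genes that rose belong to none of these groups. Ier3, an early response gene, lay below the floor on the wild-type arrays (452.2, 85.3 and 45.2) and read 4529, 2665 and 3591 in the mutants, at least 6.72-fold higher (adjusted p = 0.000629). Rnf19a, an E3 ubiquitin ligase, lay below the floor on the wild-type arrays of type b (300.8, 228.0 and 416.6) and read 1464, 1579 and 1258 in the mutants, at least 2.73-fold higher (adjusted p = 0.00472). On type a it read 642.9, 911.9 and 940.0 against 1812, 1681 and 1826 (log2 fold change 1.11, adjusted p = 0.125). On type a the lowest Rnf19a mutant array was above the highest wild-type array. Ier3 and, on type b, Rnf19a were also under the floor in heterozygotes, by means of -78.5 and 351.6. They were tested only because the mutant arrays exceeded the floor, so their lack of overlap was fixed by the filter. Igfbp2, a secreted binding protein of insulin-like growth factors, rose from 3366, 2634 and 2977 to 6077, 5700 and 5577 (1.94-fold, adjusted p = 0.0190). Syce2, a protein of the meiotic synaptonemal complex, had 0.83 (adjusted p = 0.0440), and the zinc finger gene Zfp982 had 1.33 (adjusted p = 0.0440). Ccdc130, a coiled-coil protein under the floor in wild type, was at least 2.25-fold higher (adjusted p = 0.0105). It was also under the floor in heterozygotes (mean -366.8) and was tested only through the mutant arrays. Ndrg2, a relative of Ndrg1, had 1.96 (adjusted p = 0.0190). Only 1 of its wild-type arrays exceeded the floor, and the value ran from 1.13 to 2.37 over the other settings.

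The metallothioneins, small metal-binding proteins, did not pass, and their groups did not overlap. Mt1 read 3646, 220.1 and 61.9 in wild type and 11417, 5186 and 11828 in the mutants, with wild type 1 far above the other wild-type arrays (3.15 on the log2 scale, adjusted p = 0.117). Mt2 read 5294, 5427 and 2536 against 11695, 7469 and 12237 (1.29, adjusted p = 0.0701). Mutant 6 was the lowest mutant array at both genes.

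The list of lowest median among the 45 was sterol and fatty acid synthesis, in which no gene passed. All 11 tested genes of the list were negative, their median was -0.49 on the log2 scale, and in 8 all mutant arrays lay below all wild-type arrays, against 8.7% of the 3909 tested genes. Idi1, which makes the isoprenoid building blocks, read 3112, 3987 and 4396 in wild type and 1911, 2477 and 1483 in the mutants (-0.99, SE 0.207, limma adjusted p = 0.0586). Scd1, the stearoyl-CoA desaturase, read 1339, 1786 and 1528 against 435.2, 892.0 and 833.2 (-1.17, adjusted p = 0.122). Sqle, squalene epoxidase, read 2336, 1817 and 2477 against 934.4, 1594 and 1016 (-0.93, adjusted p = 0.255). The groups did not overlap at any of these 3 genes, and mutant 6 was the highest mutant array at each.

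The other members ran the same way with smaller differences. Hmgcs1, which makes the precursor of mevalonate, read 9739, 8946 and 9404 in wild type and 5643, 7461 and 6375 in the mutants (-0.54, adjusted p = 0.231). Fdft1, squalene synthase, had -0.46, Lss, lanosterol synthase, -0.48, and Acly, which supplies acetyl-CoA, -0.41. Ebp, a sterol isomerase, was under the floor in every mutant and had -0.49, a bound. Fasn, fatty acid synthase, had -0.68 and Elovl6, a fatty acid elongase, -0.47, both with overlap, and Scd2, the desaturase isoform of brain, had -0.08. Second probe sets of Hmgcs1 (-0.57), Acly (-0.72) and Lss (-0.34) were negative too. Members past the first 4 by p are named here after their values were seen. The median deviation of the list was -0.73, -0.35 and -0.55 on mutants 2, 6 and the pair 8a and 9b, and the wild-type arrays lay between -0.05 and 0.06. The median stayed between -0.58 and -0.46 in the 14 other settings in which lists were computed, and was -0.49 without arrays 8a and 9b.

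**Figure D2:**
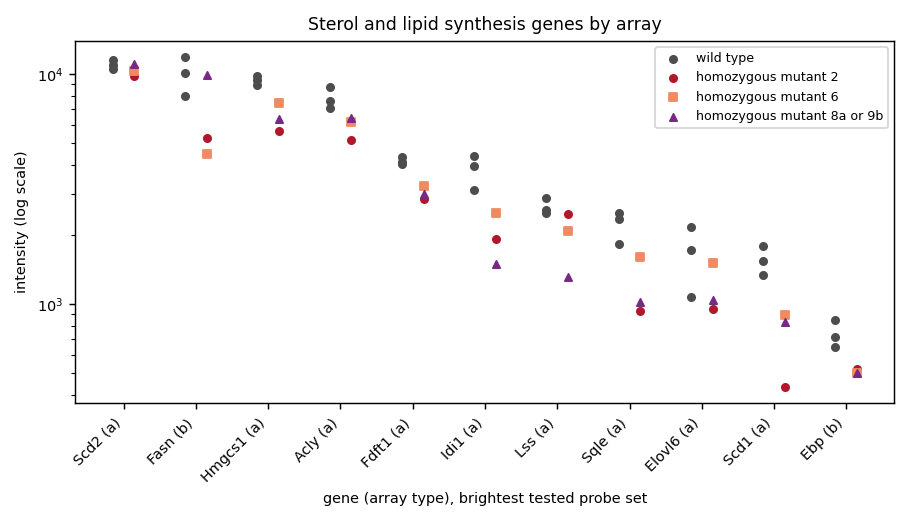
Intensity (log scale) of the 11 tested sterol and lipid synthesis genes at their brightest probe set, for 3 wild-type arrays (grey) and 3 homozygous mutant arrays (coloured). Mutant arrays lie below wild type in 8 genes, and Fasn, Elovl6 and Scd2 overlap.

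Among genes of nerve tissue Nnat and Ckb fell. Nnat, the imprinted neuronatin, fell from 11614, 11429 and 8584 to 5832, 6427 and 5862 (log2 fold change -0.79, SE 0.146, limma adjusted p = 0.0313). Ckb, the creatine kinase of brain, read 12664, 7946 and 7728 in wild type and 3595, 3302 and 3882 in the mutants on type a (-1.36, adjusted p = 0.0111), and had -1.32 on type b (adjusted p = 0.119). Of the 37 tested genes of neural progenitors and neurons 6 were positive, against 45.5% of all tested genes, 11 lay below wild type without overlap, against 8.7%, and the median was -0.28. Tubb3, a neuronal tubulin, read 4522, 2228 and 1503 against 918.3, 542.9 and 243.8, without overlap (-1.95, adjusted p = 0.0609). Neurog2, which commits progenitors to neurons, was under the floor in every mutant (at least 1.88-fold lower, adjusted p = 0.167), and the Notch ligand Dll1 had -0.80 (adjusted p = 0.327). Deviations of the list were -0.19, -0.10 and -0.65 on mutants 2, 6 and the pair 8a and 9b, and -0.22 to 0.12 on the wild-type arrays, so that mutants 2 and 6 lay inside the wild-type range. Without the pair, which has the raised actin ratio, the median was -0.14. The 6 neural markers fixed for the check of tissue summed to 12314 to 18007 in wild type and 5724 to 9530 in the mutants. Of these Tubb3, Fabp7 and Hes5 did not overlap between the groups, while Sox2 and Nes did. Mutants 2 and 6 read 3514 and 3181 at Sox2, above wild type 7 at 2918. Mutants 2 and 8a read 1744 and 1334 at Nes, above wild type 5 at 1130. Pax6 exceeded the floor on 1 wild-type array and on no mutant array.

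Among splicing and chromatin genes Srsf6 and Hcfc1 fell. Srsf6, a splicing factor of the SR family, fell from 6421, 5646 and 4874 to 2487, 2258 and 2048 on type b (log2 fold change -1.31, SE 0.178, limma adjusted p = 0.00783) and had -0.61 on type a, without overlap (adjusted p = 0.111). Hnrnpdl, an RNA-binding protein, had -1.02 and -0.91 at its probe sets (adjusted p = 0.12 and 0.125), and Srsf2 had -0.81 (adjusted p = 0.201). Sfpq, a splicing and paraspeckle protein, had -0.59, -0.74 and -0.64 at 3 probe sets and 0.12 at the dimmest. Rbmx, another RNA-binding protein, was positive (0.79). Of 58 tested genes of the list 17 were positive, against 45.5% of all tested genes, 11 lay below wild type without overlap, against 8.7%, and the median was -0.18. Mutants 2, 6 and the pair 8a and 9b had -0.11, -0.05 and -0.40, with mutant 6 inside the wild-type range of -0.09 to 0.06, and the median was -0.09 without the pair. Hcfc1, a transcriptional coregulator, was under the floor in every mutant (358.5, 506.7 and 449.1) after 1169, 1558 and 1600 in wild type, at least 2.73-fold lower (adjusted p = 0.0217). Of 44 chromatin and coregulator genes 8 were positive with a median of -0.21, and of 36 proteasome and ubiquitin genes 7 were positive with a median of -0.20.

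Rrm2, Cdkn1c and Cdk2ap1, genes of nucleotide supply and growth control, fell. Rrm2, a subunit of ribonucleotide reductase, fell from 5962, 8363 and 7178 to 3295, 4179 and 3710 at 1 of 4 probe sets (log2 fold change -0.94, adjusted p = 0.0190). Its brightest probe set had -0.47 (adjusted p = 0.326) and the others -1.11 (adjusted p = 0.225) and -0.46 (adjusted p = 0.654), with overlap at the brightest and at the last. Fen1, a flap nuclease of replication, had -0.85 (adjusted p = 0.127), Cdc6, a loader of the replicative helicase, -0.89 (adjusted p = 0.199), and Tyms, thymidylate synthase, -0.49 (adjusted p = 0.327). Of 64 tested genes of DNA replication and cell cycle 21 were positive, against 45.5% of all tested genes, 12 lay below wild type without overlap, against 8.7%, and the median was -0.11. Mutant 6 (-0.05) lay inside the wild-type range of -0.08 to 0.05. Cdkn1c, the imprinted inhibitor of cyclin-dependent kinases, fell from 7174, 6165 and 5731 to 4057, 2706 and 2859 (-1.0, adjusted p = 0.0217) and had -1.19 on type b (adjusted p = 0.0709). Cdk2ap1, which binds cyclin-dependent kinase Cdk2, fell from 15524, 18040.0 and 14322 to 7961, 10257 and 9702 (-0.78, adjusted p = 0.0440). A second probe set for it had -0.81 (adjusted p = 0.0505). The groups did not overlap at either of its probe sets.

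Further genes that fell serve mitochondria, redox balance and ribosome assembly. Mrpl20, of the mitochondrial ribosome, fell from 3794, 3573 and 3772 to 1676, 1926 and 2004 (log2 fold change -0.99, adjusted p = 0.0191). Idh1, the isocitrate dehydrogenase of the cytosol, read 4800, 4555 and 4858 in wild type and 2249, 2914 and 2753 in the mutants (-0.85, adjusted p = 0.0191). Txnrd1, a thioredoxin reductase, had -0.82 (adjusted p = 0.0440). Bysl, needed for the small ribosomal subunit, read 1038, 1120 and 931.0 in wild type and 393.4, 503.2 and 326.4 in the mutants (-1.29, adjusted p = 0.0219). The assembly factors Bop1 (-0.94, adjusted p = 0.111) and Rrp9 (-0.63, adjusted p = 0.134) did not pass, nor did Polr1c, a subunit of RNA polymerases I and III, on the positive side (0.77). Over the 19 tested genes of ribosome assembly 9 were positive and 10 negative, so the signs had no common direction. Of the 19, 5 lay below wild type without overlap, against 8.7% of all tested genes, and 2 above, against 7.85%.

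Of the cytosolic ribosomal proteins all 37 tested genes had a positive log2 fold change, against 45.5% of all tested genes. In 20 all mutant arrays lay above all wild-type arrays, against 7.85%. None passed, and the median of the list was 0.44. The list's deviation was 0.20, 0.30 and 0.86 on mutants 2, 6 and the pair 8a and 9b. That pair has the raised actin ratio, whose part in the result was not tested. Without those arrays the median was 0.22, and after quantile normalization with all arrays it was 0.06. Gas5, a noncoding RNA that hosts small nucleolar RNAs, had 1.02 and 0.85 at its probe sets, and the initiation factor Eif4b 0.64 and 0.62 (adjusted p = 0.0580 and 0.0505). Eif4b read 12815, 12940 and 13077 in wild type and 20432, 22510 and 17842 in the mutants at the brighter one, where array 8a was the lowest mutant.

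Of 40 tested collagens, laminins and other matrix genes none passed, 34 were positive, against 45.5% of all tested genes, and 6 lay above wild type without overlap, against 7.85%. Their median was 0.19, with 0.31, 0.16 and 0.25 on mutants 2, 6 and the pair 8a and 9b, of which mutant 6 lay inside the wild-type range of -0.10 to 0.17. Postn, periostin, read 989.1, 130.4 and 446.7 in wild type and 3360, 1509 and 1208 in the mutants (1.5 on the log2 scale, adjusted p = 0.206). The laminin chain Lamb1 had 0.89 (adjusted p = 0.135). Sarcomere genes of heart muscle showed no common direction, with a median of 0.03 over 16 genes and deviations of -0.56, -0.04 and 0.52 on mutants 2, 6 and the pair 8a and 9b. Without that pair their median was -0.31.

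**Figure D3:**
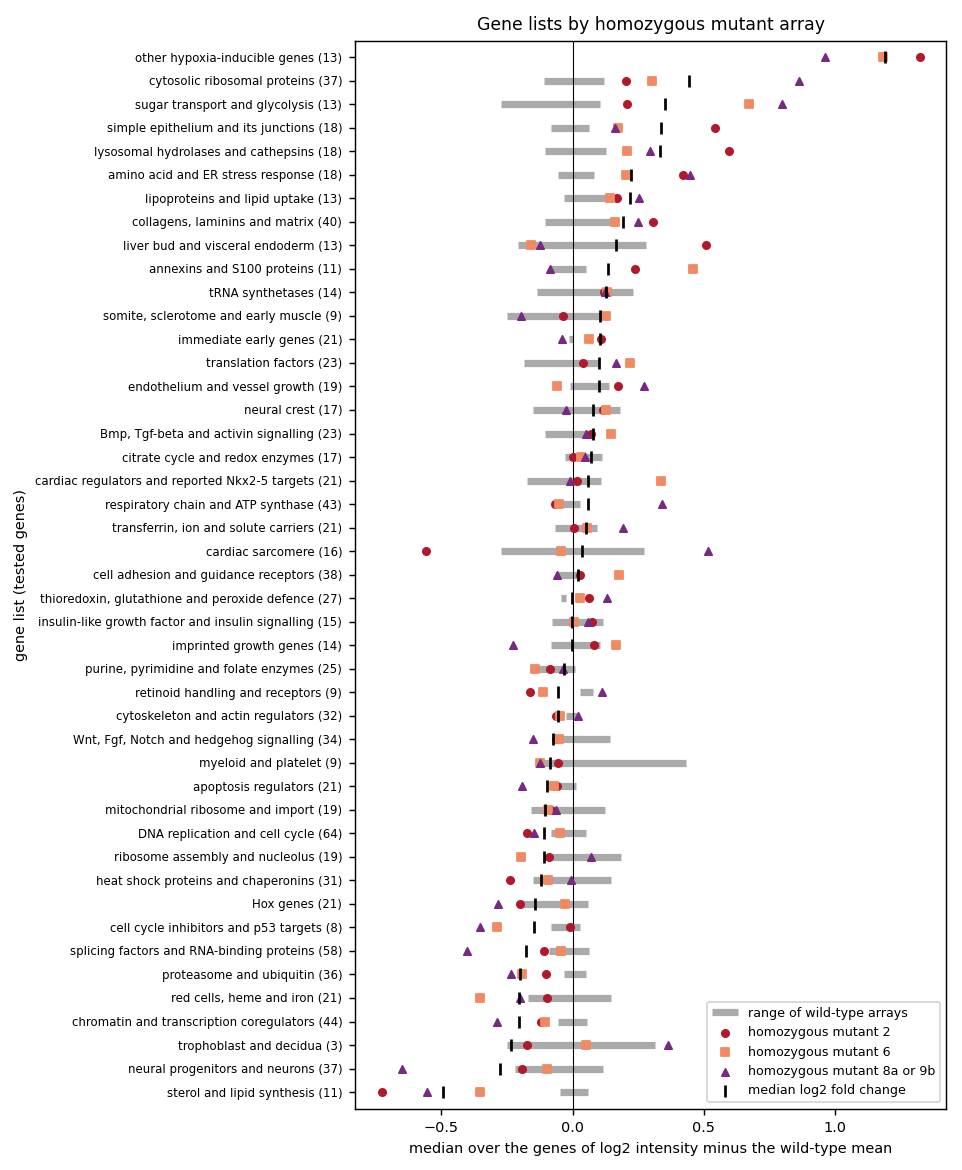
Median over the tested genes of each list (number in brackets) of log2 intensity minus the wild-type mean, for each mutant array (coloured), with the range of the wild-type arrays (grey bar) and the median log2 fold change (black tick). Hypoxia-inducible genes lie highest on mutants 2, 6 and the pair 8a and 9b (0.96 to 1.32), sterol and lipid synthesis is lowest by its median (-0.49), and the cardiac sarcomere list spreads from -0.56 to 0.52.

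The changes were next compared between probe sets of a gene. Of the 36 changed genes 24 had a single tested probe set and 12 had more, and in these 12 every tested probe set had the same sign. All 12 probe sets that did not pass, beside those that did, ran with the changed one, and 8 of them without overlap. Slc2a3, Ctsl and Anxa2 changed at 2 probe sets each. Over all 628 genes with at least 2 tested probe sets 65.92% had 1 sign throughout, and 2.87% were above and 2.55% below wild type at every probe set without overlap. With each probe set also at least 0.5 in size there were 13 genes higher, among them the signalling genes Prkcd (0.78 and 0.70) and Grb7 (1.14 and 0.61), and 9 lower, among them Cdc42se2 (-1.11 and -1.03) and the polycomb protein Phc2 (-0.84 and -0.54). Without arrays 8a and 9b Prkcd had 0.94 and 0.58, and Grb7 had 0.70 and 0.47. Cdc42se2 then had -0.76 and -0.55, and Phc2 had -0.73 and -0.45. No gene had probe sets of opposite sign that were both at an unadjusted p under 0.05. Of the changed probe sets 16 carry the suffix f, which the maker gives to sets that share probes with a sequence family, 33.33% against 17.17% of those tested; Ctsl, Anxa2, Apoe, Ckb, Cdkn1c, Aldoa and Tpi1 are among them, and related transcripts may add to their values.

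**Figure D4:**
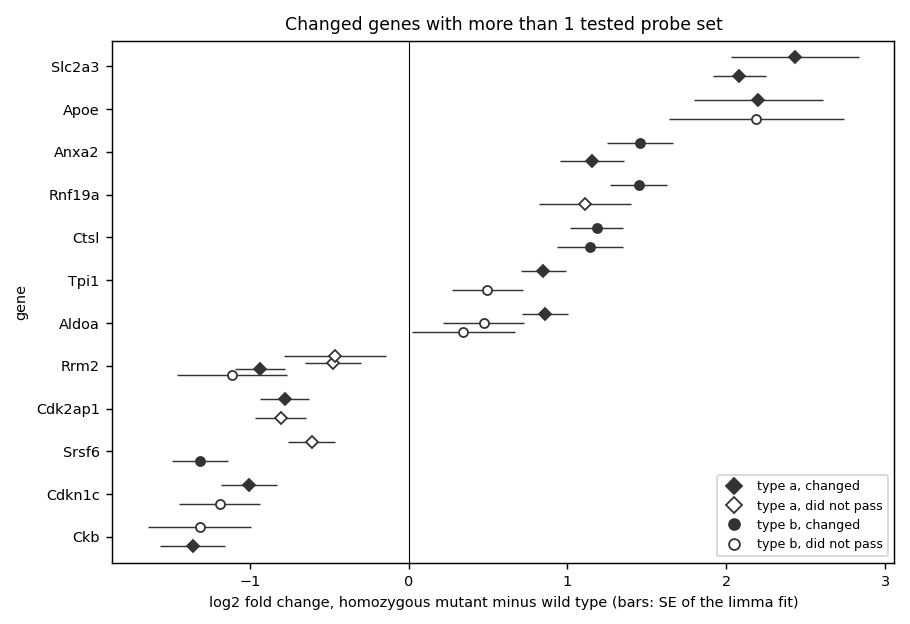
Log2 fold change with its standard error for every tested probe set of the 12 changed genes that have more than 1; filled symbols passed the test, open symbols did not, diamonds are type a and circles type b. All probe sets of a gene lie on the same side of 0.

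The mutant arrays were then compared with one another. A probe set passes only where its arrays are alike, and values at the floor are equal, so agreement among the changed ones follows in part from the test and is a description. Over all tested probe sets 7.24% had every mutant array above every wild-type array and 8.19% every mutant array below, and all 48 changed ones were of these kinds. In 47 of the 48 the mutant array nearest to wild type deviated at least 0.5 times as far as the farthest one, Apoe being the exception, and the median of that ratio was 0.758. The nearest array was mutant 2 in 7 probe sets, mutant 6 in 23 and array 8a or 9b in 18. The median size of the deviation was 1.37, 1.33 and 1.32 on the log2 scale in that order. Just outside the threshold, at an adjusted p from 0.05 to 0.1, lay 41 probe sets, 22 higher and 19 lower; those with 1 gene symbol nearest to it were Hes6 (-1.08, adjusted p = 0.0502), Krt8, Eif4b and Cdk2ap1.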

How the data were processed

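The authors deposited 1 intensity per probe set and array, on a linear scale. Negative values show that some signal had been subtracted, but not which. From their values the arrays were taken as already scaled. The software and the scaling target were not given in the sources used here, and scanner files were not used here. The deposited scaling was kept. Control probe sets were left out, gene symbols came from the platform annotation, and probe sets with several symbols or none were counted but not named.

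The noise SD of an array type was the scaled median size of its negative values (187.5 on type a, 261.5 on type b), and the floor was 2 times that. Each type was fitted with limma 3.58.1 in R 4.3.3 (lmFit, eBayes with an intensity trend, two-sided) on its 9 arrays with 3 genotypes, and p-values were adjusted over both types together. The fit was tested on simulated data. Precision is limited by having 3 arrays per genotype and type. A gene in a list stands by its brightest probe set. A fold with all arrays of a group under the floor is a lower bound.

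Named genes were all changed ones, in each of 45 lists up to 4 more by p, genes whose probe sets agreed without overlap, and those nearest outside the threshold. The members and lists were chosen with earlier results of these data known. Alternatives varied the floor, the filter, the normalization, the arrays fitted, the moderation and the adjustment, and left out each replicate in turn.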

Additional observations from a re-analysis of the deposited data

Results flagged for a closer look

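The BioB spike-in, a bacterial transcript that is read outside the gene comparison, had a mean intensity of 3950.1 on homozygous mutant array 8a, where the other type a arrays had 965.6 to 1538.8. On homozygous mutant array 9b it was 4530.9, where the other type b arrays had 1497.8 to 2320.4. The same arrays had the highest Gapdh 3' to 5' ratios, 1.333 against 0.8067 to 0.961 on type a and 1.21 against 0.8886 to 1.004 on type b. The part of these signals in the results on genes was not tested. Of the 48 changed probe sets 39 also passed without these arrays, where 55 passed in all.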

How the results depend on the processing

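No value in the tables changed sign among the 48 changed probe sets and the other named genes. With all 48 probe sets as the reference (35 higher, 13 lower), leaving out each replicate in turn gave 14 to 55 changed, 12 to 46 higher and 1 to 11 lower. With no filter on dim probe sets 19 changed, 16 higher and 3 lower, over 13057 tested instead of 6935. With the wild-type and mutant arrays alone 7 changed, all 7 higher and 0 lower by limma (unadjusted p under 0.05 in 614). Without the intensity trend 8 were lower. In a setting chosen after seeing the data, without the 3 arrays of each type that were high in Afp, limma gave 0 changed, 0 higher and 0 lower (unadjusted p under 0.05 in 524, smallest adjusted p 0.0556), from 6 arrays a type. In the 19 planned settings 7 of the 48 probe sets passed wherever they were tested: those of Ddit4, Ier3, Vldlr, Pgm1 and Krt19, the brighter of Slc2a3 and 1 without a gene name. The other 41 lost the call in at least 1, and the cause was not tested. Ier3 and Vldlr could be tested in only 18 of the 19. They lay under the floor in wild type and, by their means of -78.5 and 255.8, in heterozygotes, and were tested through the mutant arrays. Their floored values are equal, which lowers the spread that the test uses. Over the 14 other settings computed for lists the medians ran from 0.20 to 0.46 for simple epithelium, 0.24 to 0.49 for lysosomal genes, 0.08 to 0.36 for the amino acid response, 0.14 to 0.32 for matrix, -0.41 to -0.14 for neural genes, -0.27 to -0.09 for splicing, -0.23 to -0.12 for chromatin and -0.31 to 0.14 for the sarcomere, the only one of these that took both signs. Quantile normalization lowered the median of the ribosomal protein list from 0.44 to 0.06. No paired analysis was possible because wild type and homozygous mutant share no replicate number. Probe sets near the floor have fold changes that depend on it: that of Ndrg1 ran from 0.19 to 2.19.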
